A study of Mus musculus with 7 samples.

Results

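The mitochondrial carriers of the Slc25 family and the uncoupling proteins were examined in quadriceps muscle of AR113Q knock-in mice, a model of spinobulbar muscular atrophy (SBMA). Members were all non-control probes of the array whose gene name was Slc25a followed by a number, or Ucp1, Ucp2 or Ucp3. There were 63 such probes among 39429, and they read 50 genes, 13 of them with 2 probes. Total RNA of 3-month-old C57BL/6 mice was hybridized to single-dye Agilent 44K mouse arrays, 1 array per mouse, with 4 WT and 3 AR113Q mice. AR113Q mice carry a humanized androgen receptor gene with an expanded CAG repeat, which encodes a polyglutamine tract, at the locus of the mouse gene, so that the mutant receptor is made wherever the gene is active. The labels call the controls WT, while the text of the study describes knock-in controls whose repeat is short. The series text writes the mutant group as AR113Q-NCD without explaining the suffix. The labels give no sex, while the reporting summary of the study states that its mice were male. The array does not read repeat length, so the genotype labels were not checked with these values. Nothing in the sources describes pooling.

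The carriers sit in the inner mitochondrial membrane and exchange nucleotides, phosphate, carboxylates, amino acids, cofactors and iron between the cytosol and the matrix. In skeletal muscle, where contraction consumes ATP, the ADP/ATP translocase is among the most abundant inner membrane proteins. The uncoupling proteins are relatives of these carriers. UCP1 lets protons leak across the membrane of brown adipocytes and produces heat, and UCP3 is mainly a skeletal muscle protein.

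Of the 50 genes, 38 had a probe that stood well above background on 3 or more arrays; they were tested among 16577 genes, and 35 of the 38 were above background on all arrays. A gene was called when the limma adjusted p was at most 0.05 and the log2 fold change at least 1 in size. Among tested carriers, 8 were called higher in AR113Q muscle (Slc25a34, Slc25a18, Slc25a33, Slc25a5, Slc25a28, Ucp3, Slc25a20 and Slc25a38) and 5 lower, among them Slc25a25, Slc25a1, Slc25a35 and Slc25a10. That is 21.1% of tested members called higher, against 11.2% of all genes tested, and 13.2% called lower, against 13.1%. The lower calls were 1 with normexp background correction and 1 in the authors' normalized values, the higher calls were 5 without AR113Q replicate 1, and both were 0 with slide as a fixed effect. Slc25a10 passed the filter only through the WT arrays, and Slc25a18 stood above background on all 3 AR113Q arrays but on 2 of the 4 WT arrays. Among the 35 members above background on all arrays, 7 were called higher, against 10.1% of all genes under that filter, and 4 lower, against 11.5%. By adjusted p alone, 19 of 38 passed, or 50%, against 43.6% of all genes. For 20 members the values of the genotypes did not overlap (52.6%, against 49.3%). The median log2 fold change was 0.15 over the members and -0.01 over all genes, with 21 of 38 members above 0.

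**Figure D1:**
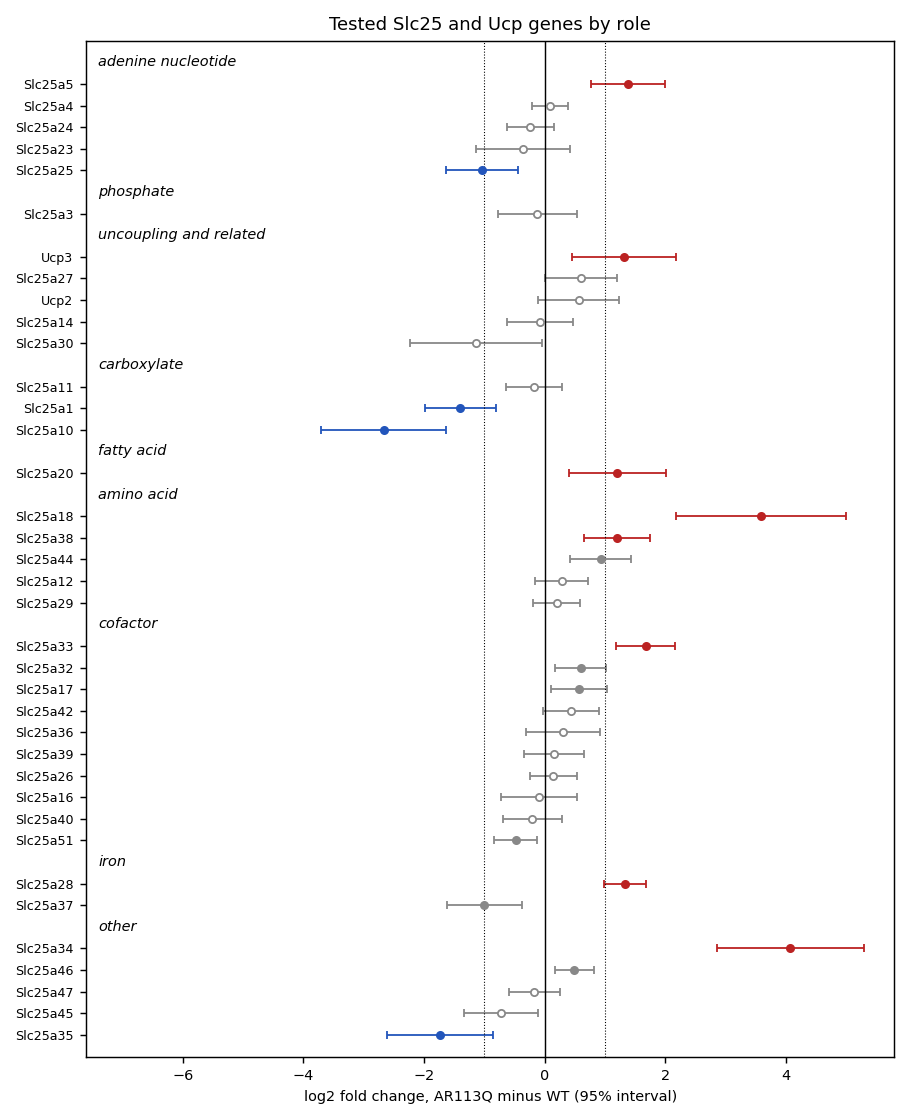
Log2 fold change of 37 tested genes, grouped by the cargo or kind of carrier. Points are limma estimates with 95% intervals, and red and blue mark 8 higher and 4 lower calls. Filled points have an adjusted p of at most 0.05, and the dotted lines mark a change of 1. Slc25a34 stands at 4.08. The Slc25a10 point rests on AR113Q values that were not well above background, so its size is uncertain.

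Levels below are quantile-normalized log2 intensities, which compare mice for 1 probe and not 1 gene with another, and are listed in order of replicate number. The arrays had 18785 to 22013 probes well above background. The array annotation places the probes on mouse build mm9. The 10 muscle fiber genes chosen as markers were all tested and well above background, and 0 of them were called. Only Ckm passed the adjusted p, with a log2 fold change of -0.80 and no overlap (adjusted p = 0.0102). The log2 of the summed fiber markers was 19.91 to 20.07 in WT and 19.52, 19.65 and 20.09 in AR113Q. Among markers of other cells, 5 of 7 fibroblast genes, 3 of 8 macrophage genes and 5 of 10 adipocyte genes were called lower. So were 2 of 6 Schwann cell genes and 1 of 7 endothelial genes, against 13.1% of all genes. The endothelial count is near that share. In the other direction, 1 macrophage and 1 adipocyte gene were called higher, against 11.2% of all genes. Of 4 tested erythroid genes 0 were called. The log2 of the summed fibroblast markers was 16.69 to 16.97 in WT and 16.20 to 16.69 in AR113Q. Dcn (decorin), the brightest probe in that sum, had a log2 fold change of 0.41 (adjusted p = 0.0692), whereas those of the 5 called genes ran from -2.25 (Col1a2) to -4.62 (Col3a1); the part of these cells in the values below was not tested. In whole muscle, fewer cells of a type and less RNA per cell cannot be told apart.

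The arrays lay on 5 slides, and 1 of them carried a mouse of each genotype, namely WT replicate 2 with AR113Q replicate 1. For 12 of the 13 called members the genotypes did not overlap, which fixes the sign of any difference within that slide. For Slc25a20, where they overlapped, AR113Q was higher by 1.49 there. The difference was smaller within the slide than in the full comparison for Ucp3 (0.28), Slc25a5 (0.53), Slc25a18 (2.92) and Slc25a34 (3.88). With slide as a fixed effect, 1 residual degree of freedom remained and 0 members passed the limma adjustment, while 12 of 38 had an unadjusted p of at most 0.05, against 37.4% of all genes.

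Slc25a34, which lies on the minus strand of chromosome 4 (probe at chr4:141174747-141174806), gave the highest log2 fold change of the family in the fit on each gene's brightest probe. This carrier long had no assigned cargo. Its level was 7.25, 9.37, 9.67 and 9.05 on the WT arrays and 13.25, 12.65 and 12.84 on the AR113Q arrays. Every AR113Q mouse lay above every WT mouse, and WT replicate 1 was the lowest of all. AR113Q exceeded WT by a log2 fold change of 4.08 ± 0.53 (SE), or 16.9-fold, with an adjusted p of 0.000841. Slc25a35, a close relative that also long lacked a known cargo (probe at chr11:68785799-68785858), went the other way. It read 6.94, 6.88, 7.06 and 6.72 in WT and 4.47, 4.82 and 6.23 in AR113Q muscle. The ranges did not overlap, and AR113Q replicate 3 stood nearest to WT. Slc25a35 fell by 1.73 ± 0.38 (SE; adjusted p = 0.00781). It is a dim probe, and its change was -0.74 after normexp background correction and -0.49 in the authors' normalized values, both short of the fold threshold.

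**Figure D2:**
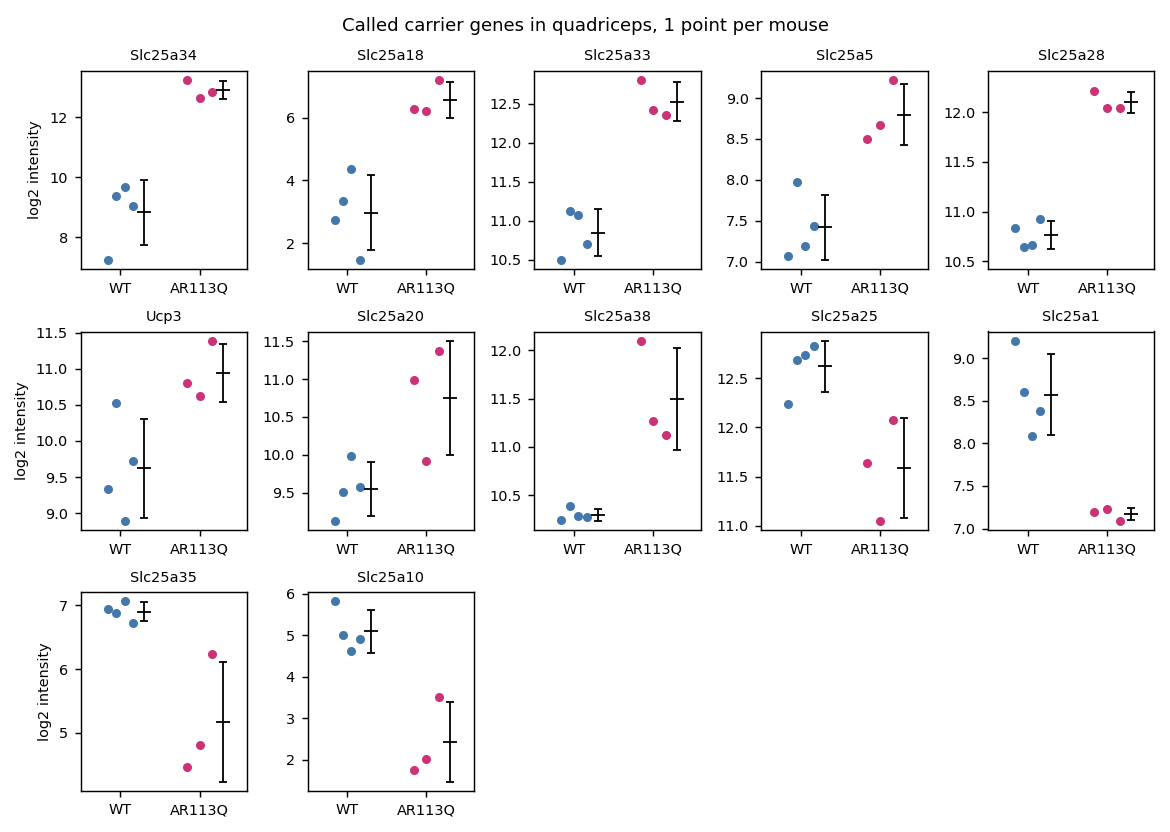
Normalized log2 intensity of 12 called carrier genes, 1 point per mouse, with WT in blue, AR113Q in pink, and mean ± SD in black. Each panel has its own axis; the genotypes overlap only for Slc25a20, and Slc25a38 and Slc25a35 spread more among AR113Q mice than among WT mice.

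ADP/ATP translocase 1 (Slc25a4), the heart and muscle isoform that exports ATP from mitochondria, differed little after quantile normalization. It read 17.35, 17.29, 17.26 and 17.28 in WT and 17.32, 17.41 and 17.40 in AR113Q. All 7 values lay close together, and the genotypes overlapped. The log2 fold change was 0.08, with a 95% interval from -0.22 to 0.39 and an adjusted p of 0.632; it was -0.51 when arrays were scaled to the 75th percentile, so no direction is given. Its probe is shown because it reads coding sequence of the muscle isoform (chr8:47292828-47292887, minus strand, mm9); capitals mark the only reading frame without a stop codon.
Slc25a4 probe: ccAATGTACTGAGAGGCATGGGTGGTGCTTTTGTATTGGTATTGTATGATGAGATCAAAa

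ADP/ATP translocase 2 (Slc25a5), the isoform of many proliferating cells, was higher. WT arrays read 7.08, 7.97, 7.19 and 7.44 and AR113Q arrays 8.50, 8.67 and 9.22. No WT value reached the AR113Q range, and WT replicate 2 came closest. Its rise was 1.38 ± 0.27 on the log2 scale (SE; 2.60-fold; adjusted p = 0.00437), but 0.53 within the shared slide, and 0.94, under the fold threshold, in the authors' values. The annotation places the 2 Slc25a5 probes on chromosomes 1 and 14, whereas the gene lies on chromosome X, so signal from the gene and from copies of like sequence cannot be told apart. The other probe was not above background on any array.

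Among the ATP-Mg/phosphate carriers, which move adenine nucleotides in and out of the matrix in response to calcium, Slc25a25 was called lower. It read 12.24, 12.69, 12.74 and 12.82 in WT and 11.64, 11.05 and 12.07 in AR113Q. AR113Q replicate 2 was the lowest, and the groups did not overlap. Slc25a25 fell by 1.04 ± 0.26 (SE; adjusted p = 0.0141), just past the fold threshold, and its second probe fell by 1.09 ± 0.27 (adjusted p = 0.013 in the fit over probes). The fold threshold was missed without AR113Q replicate 2 (-0.77), WT replicate 3 (-0.99) or WT replicate 4 (-0.97). The related Slc25a24 (-0.23, adjusted p = 0.303) and Slc25a23 (adjusted p = 0.418) did not pass; Slc25a23 was above background on 2 of 4 WT and 1 of 3 AR113Q arrays, so no fold change is given for it. Slc25a3, which brings in the phosphate used to make ATP, had a log2 fold change of -0.12 (95% interval -0.77 to 0.53) on its brighter probe and -0.59 (adjusted p = 0.101 in the fit over probes) on the other.

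Of the uncoupling proteins, only Ucp3 was called. Its brighter probe (chr7:107634291-107634350) read 9.34, 10.52, 8.89 and 9.73 in WT and 10.80, 10.62 and 11.39 in AR113Q. WT replicate 2 lay just under the lowest AR113Q value. The log2 fold change was 1.32 ± 0.38 (SE; 2.49-fold; adjusted p = 0.0231). A second probe in the same gene (chr7:107630399-107630458, plus strand, mm9) read 9.69, 10.42, 9.21 and 9.66 in WT and 10.59, 10.35 and 10.91 in AR113Q. On this probe WT replicate 2 stood above AR113Q replicate 2. Its log2 fold change of 0.87 ± 0.29 (SE; adjusted p = 0.0383 in the fit over probes) was below the fold threshold. Within the shared slide the brighter probe differed by 0.28, and without AR113Q replicate 3 by 0.72 with an adjusted p of 0.101; the call was also lost without WT replicate 1 (adjusted p = 0.0575) and without AR113Q replicate 1 (adjusted p = 0.0516).

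Ucp2 is the next protein-coding gene to Ucp3 on chromosome 7 and is transcribed in many tissues, macrophages among them. It read 7.79, 8.50, 7.73 and 8.70 in WT and 8.81, 9.06 and 8.37 in AR113Q. The genotypes overlapped, with AR113Q replicate 3 inside the WT range. The log2 fold change was 0.57, with a 95% interval from -0.11 to 1.24 and an adjusted p of 0.152. The summed level of the 8 macrophage markers was 12.82 to 13.57 in WT and 12.26 to 12.69 in AR113Q on the log2 scale, with no overlap and all 8 above background; its part in the Ucp2 value was not tested.

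Ucp1 was not tested, since its probe was well above background on 1 array. Its values were 1.88, 3.08, 1.95 and 6.42 in WT and 1.82, 1.77 and 2.01 in AR113Q. WT replicate 4 alone stood out, and the other 6 arrays were not above background and have no order. Among adipocyte markers Cidea, a lipid droplet protein that brown adipocytes make in quantity, rose by 3.47 (adjusted p = 0.00138), while Adipoq (adiponectin) fell by 2.71 and Retn (resistin) by 2.31 (adjusted p = 0.0012 for each). The sum of the 10 adipocyte markers was 16.07 to 16.77 in WT and 15.45 to 16.18 in AR113Q, and its part in the Ucp1 value was not tested. The probes of Ucp3 and Ucp1 are shown because they read coding parts of the proteins of muscle and of brown fat, 1 measured on all arrays and the other at background on 6; capitals mark the only frame without a stop codon, and the Ucp1 probe lies at chr8:85821788-85821847 (plus strand, mm9).
Ucp3 second probe: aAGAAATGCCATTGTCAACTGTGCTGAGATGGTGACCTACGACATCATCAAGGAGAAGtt
Ucp1 probe: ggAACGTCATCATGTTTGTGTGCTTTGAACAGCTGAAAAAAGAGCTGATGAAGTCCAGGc

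Other relatives of the uncoupling proteins did not pass the adjusted p. Slc25a27 (UCP4, best known from brain) had a log2 fold change of 0.60 (adjusted p = 0.0962). Slc25a14 (UCP5) stood at -0.07 (adjusted p = 0.821). Slc25a30, the kidney mitochondrial carrier, stood at -1.13 (95% interval -2.23 to -0.04, adjusted p = 0.0882).

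**Figure D3:**
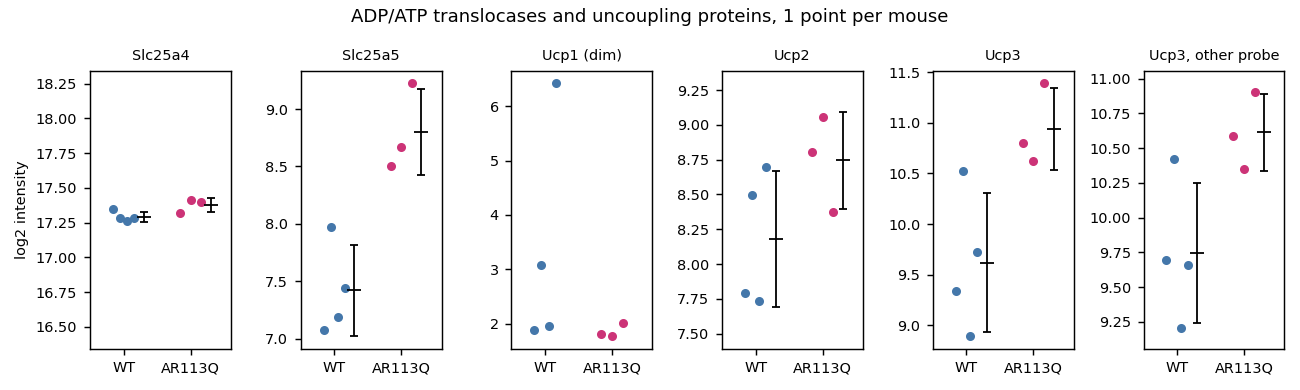
Normalized log2 intensity of the ADP/ATP translocases and uncoupling proteins, 1 point per mouse, each panel with its own axis, and mean ± SD in black where the gene was tested. Slc25a4 varies little on this scale, Slc25a5 is higher in each AR113Q mouse, Ucp2 overlaps, and Ucp1 was above background only in WT replicate 4 at 6.42.

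The carboxylate carriers were lower or level. Slc25a1, the citrate carrier that supplies acetyl units for lipid synthesis in the cytosol, read 9.21, 8.61, 8.09 and 8.38 in WT and 7.19, 7.23 and 7.09 in AR113Q. The AR113Q mice were tightly grouped and lay below every WT mouse. Slc25a1 fell by 1.40 ± 0.26 (SE; adjusted p = 0.00338), with -0.90 after normexp and -0.74 in the authors' values, below the fold threshold in both. Slc25a10, the dicarboxylate carrier that exchanges malate or succinate for phosphate (chr11:120359439-120359498), read 5.82, 5.0, 4.63 and 4.92 in WT and 1.75, 2.01 and 3.52 in AR113Q. No AR113Q array was well above background, whereas all 4 WT arrays were. With AR113Q values raised to the dimmest probe above background on each array, Slc25a10 was 2.74-fold lower in AR113Q on background-subtracted values. That level is not an upper limit for probes not above background, so this is not a minimum. The probe passed the filter through the WT arrays alone, so its adjusted p of 0.00246 lends no support to the difference. Its change was -0.38 after normexp and -0.18, with an adjusted p of 0.071, in the authors' values, both smaller in size.

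Slc25a11, the oxoglutarate carrier of the malate-aspartate shuttle, had a log2 fold change of -0.17 (95% interval -0.64 to 0.29). In adipocytes these carriers feed lipid synthesis, and the adipocyte marker sums overlapped only through AR113Q replicate 3 (16.18) and WT replicate 3 (16.07). The part of adipocytes in these values was not tested.

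Slc25a20, which exchanges acylcarnitines for carnitine and so brings fatty acids to beta-oxidation, was called higher with overlap. It read 9.13, 9.50, 9.98 and 9.58 in WT and 10.99, 9.91 and 11.36 in AR113Q. AR113Q replicate 2 fell below WT replicate 3. The log2 fold change was 1.21 ± 0.35 (SE; 2.31-fold; adjusted p = 0.0248), and the call was lost without either of WT replicates 1 and 2 and without either of AR113Q replicates 1 and 3 (adjusted p from 0.0519 to 0.0813). The probe (chr9:108585399-108585458, plus strand, mm9) is shown because it reads coding sequence; capitals mark the only frame without a stop codon.
Slc25a20 probe: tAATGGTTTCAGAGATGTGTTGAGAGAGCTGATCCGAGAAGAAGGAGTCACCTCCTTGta

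Of 9 amino acid carriers 5 were tested. All 5 had a positive log2 fold change, from 0.20 to 3.58, against 49.4% of all genes above 0. The 2 called, against 24.3% of all genes called in either direction, were Slc25a38 and Slc25a18. The value of 3.58 is that of Slc25a18, which passed the filter through the AR113Q arrays. The upper end of the range and the count of calls are therefore not read as a group result. Slc25a18, a carrier that brings glutamate into the matrix, read 2.74, 3.35, 4.36 and 1.46 in WT and 6.27, 6.20 and 7.21 in AR113Q. The AR113Q mice lay above all WT mice, of which only 2 were above background. The log2 fold change of Slc25a18 was 3.58 in these values and 1.04 after normexp, so its size is uncertain. The WT arrays alone would not have passed the filter, so its call (adjusted p = 0.00259) lends no support to the difference. On the second probe no WT array and all 3 AR113Q arrays were above background. With its WT values raised to the dimmest probe above background on each array, it was 7.13-fold higher in AR113Q, which is likewise not a minimum. Since this probe passed the filter through the AR113Q arrays alone, its adjusted p of 3.6e-05 in the fit over probes lends no support to the difference.

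Slc25a38 imports glycine, the first building block of heme. It read 10.24, 10.39, 10.29 and 10.27 in WT and 12.10, 11.27 and 11.12 in AR113Q. WT mice were close together, and AR113Q replicate 1 was well above the others. Slc25a38 rose by a log2 fold change of 1.20 ± 0.24 (SE; 2.30-fold; adjusted p = 0.00501), and 0.89, under the fold threshold, without AR113Q replicate 1. Slc25a44, the branched-chain amino acid carrier, had, in the fit over probes, 0.93 ± 0.22 (SE; adjusted p = 0.0107) on its brighter probe, while the other probe was above background on all 3 AR113Q arrays but on 2 of 4 WT arrays, passed the filter through the former, and is given no fold change. Slc25a12 (aralar), the aspartate/glutamate carrier of the malate-aspartate shuttle, stood at 0.28 (adjusted p = 0.265), and Slc25a29, for basic amino acids, at 0.20 (adjusted p = 0.358).

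The 2 mitoferrins, which take iron into the matrix for heme and iron-sulfur clusters, were both tested, and 1 was called. Slc25a28 (mitoferrin 2), the form of most tissues, read 10.83, 10.64, 10.66 and 10.93 in WT and 12.22, 12.04 and 12.04 in AR113Q. Both groups were narrow and far apart. Its log2 fold change was 1.34 ± 0.15 (SE; 2.52-fold; adjusted p = 0.00046), the lowest adjusted p of the family in the fit on brightest probes. Slc25a37 (mitoferrin 1), the form of developing red cells, read 9.96, 9.86, 10.56 and 10.91 in WT and 9.24, 9.47 and 9.27 in AR113Q. WT replicates 3 and 4 were the highest. Its log2 fold change of -0.997 ± 0.27 (SE; adjusted p = 0.0183) was just short of the fold threshold, and its second probe gave -0.40 ± 0.22 (adjusted p = 0.164 in the fit over probes).

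The sum of the 4 tested erythroid markers was 15.44, 15.46, 16.88 and 17.71 in WT and 15.82, 15.46 and 15.76 in AR113Q. The same WT replicates, 3 and 4, were high in that sum and in Slc25a37. These arrays shared a slide that carried no AR113Q mouse, so a difference between slides cannot be told apart from one between mice. Hba-a1, Hbb-b1, Alas2 and Slc4a1 were tested and 0 of 4 passed, while Epb42 and Ahsp were not above background on enough arrays. The part of red cells in the mitoferrin and Slc25a38 values was not tested.

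All 11 cofactor and nucleotide carriers were tested and above background on all arrays. Slc25a33, a pyrimidine nucleotide carrier that insulin and IGF1 induce, read 10.49, 11.13, 11.07 and 10.699 in WT and 12.81, 12.42 and 12.35 in AR113Q. All AR113Q mice were above all WT mice. Slc25a33 rose by a log2 fold change of 1.68 ± 0.21 (SE; 3.20-fold; adjusted p = 0.000718), and the second probe gave 1.57 ± 0.23 (adjusted p = 0.00131 in the fit over probes). Slc25a36, the other pyrimidine nucleotide carrier, stood at 0.30 (adjusted p = 0.389).

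Slc25a32 (folate and FAD) at 0.60 and Slc25a17 (the peroxisomal carrier of coenzyme A) at 0.57 passed the adjusted p (0.0305 and 0.0476) without reaching the fold threshold.

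Slc25a51, the NAD carrier, had probes of opposite sign, -0.48 ± 0.16 (SE; adjusted p = 0.0389) and 0.46 ± 0.17 (adjusted p = 0.0505) in the fit over probes, so no direction is given. Slc25a26, the S-adenosylmethionine carrier, likewise had probes at 0.14 and -0.26, neither past the threshold. The glutathione carriers Slc25a39 and Slc25a40, and Slc25a42 and Slc25a16 for coenzyme A, ranged from -0.20 to 0.44 without passing. Slc25a46, an outer membrane member linked to mitochondrial fusion and fission, gave, in the fit over probes, 0.49 ± 0.14 (SE; adjusted p = 0.023) on the brighter probe; a dim one, above background on 2 of 4 WT arrays, likewise passed through the AR113Q arrays and is given no fold change. Slc25a45 (-0.73, adjusted p = 0.0576) and Slc25a47 (-0.17, adjusted p = 0.472) did not pass.

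**Figure D4:**
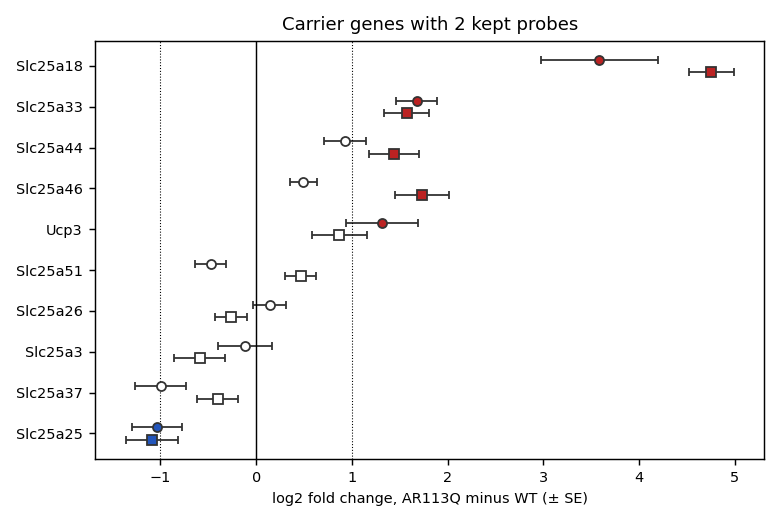
Log2 fold change with SE of both probes for the 10 carrier genes with 2 kept probes; circles are the brighter and squares the dimmer probe, and red or blue fill marks a call. Slc25a33, Slc25a25 and Slc25a18 are called on both probes, and Ucp3, Slc25a44 and Slc25a46 on 1. Both points of Slc25a18 and the dimmer points of Slc25a44 and Slc25a46 rest in part or whole on WT values that were not above background. The Slc25a51 and Slc25a26 probes lie on opposite sides of 0.

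The 12 members that were not tested were Slc25a2, Slc25a13, Slc25a15, Slc25a21, Slc25a22, Slc25a31, Slc25a41, Slc25a43, Slc25a48, Slc25a53, Slc25a54 and Ucp1. Of these, 10 were not well above background on any array; Slc25a13 (citrin, the aspartate/glutamate carrier of liver) was so on 2. The median SD of the tested members was 0.25 in WT and 0.37 in AR113Q, against 0.21 and 0.31 over all genes.

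Genes that work with the carriers were counted from lists, and these counts stand beside the 24.3% of all genes that were called. Of 16 genes for importing carriers into the inner membrane, 1 was called, Timm10, an intermembrane space chaperone for these proteins, at 1.08 (adjusted p = 0.00173). Of 22 other mitochondrial transport genes, 1 was called, Sfxn3, a sideroflexin, which fell by 1.16 (adjusted p = 0.00754). Of 21 enzymes linked to carriers 1 rose and 3 fell. Got1, the cytosolic transaminase of the malate-aspartate shuttle, rose by 1.22 (adjusted p = 0.00735), and the glycerol phosphate shuttle enzymes Gpd1 and Gpd2 fell by 1.88 and 1.25 (adjusted p = 0.000714 and 0.000879). Of 10 tested regulators of mitochondrial genes 3 rose and 0 fell, among them Nrf1 at 1.30 (adjusted p = 0.000893) and Ppard at 1.10 (adjusted p = 0.00286).

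RefSeq promoters (build GRCm38.p6, 250 bases before to 50 after a start) were found for 39 of 50 member genes and 11 of 13 called ones. The E-box CACGTG, which reads the same on both strands, was in 2 of the 13 promoters listed for those 11 genes and in 7.15% of 32851 promoters. The hexamer AGAACA, bound by androgen and glucocorticoid receptors, was in 0 of 13 and in 19.0% of all promoters, on either strand. The ERR motif TCAAGGTCA was in 0 of 13 (0.423% of all), and the NRF1 core CGCATGCG was in 0 of 13 (1.87% of all). No match says only that these letters were not in the window. The promoters with the E-box belong to Slc25a33, which rose, and Slc25a1, which fell, and are shown for that contrast with the E-box in capitals; it begins 8 and 239 bases before the start. Both lie on the minus strand, at chr4:149774218-149774517 and chr16:17928170-17928469 (GRCm38.p6).
Slc25a33 promoter: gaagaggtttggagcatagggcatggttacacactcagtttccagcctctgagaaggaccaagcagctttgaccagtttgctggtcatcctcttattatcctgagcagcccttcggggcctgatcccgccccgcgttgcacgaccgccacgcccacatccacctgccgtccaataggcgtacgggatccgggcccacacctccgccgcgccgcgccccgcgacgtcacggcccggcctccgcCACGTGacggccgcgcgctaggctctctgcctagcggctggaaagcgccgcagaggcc
Slc25a1 promoter: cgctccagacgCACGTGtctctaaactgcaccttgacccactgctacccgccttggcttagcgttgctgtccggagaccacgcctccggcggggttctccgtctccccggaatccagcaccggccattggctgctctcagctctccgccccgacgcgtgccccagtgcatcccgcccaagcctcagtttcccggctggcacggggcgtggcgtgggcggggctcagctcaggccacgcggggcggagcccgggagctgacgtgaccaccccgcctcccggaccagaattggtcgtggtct

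**Figure D5:**
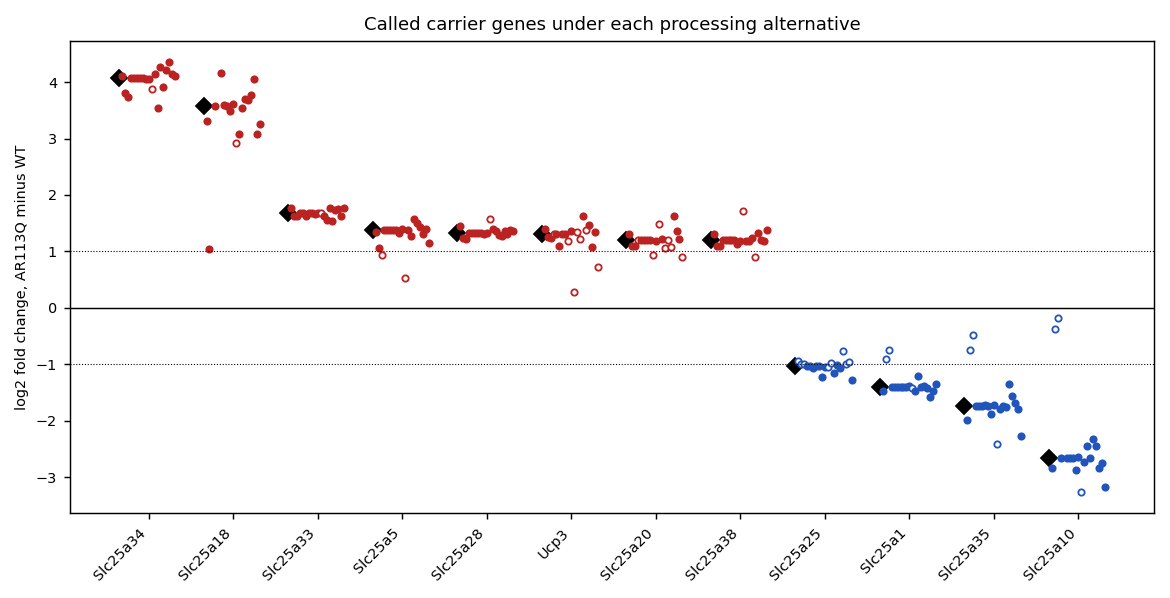
Log2 fold change of 12 called carrier genes in the main analysis (black diamonds) and in each processing alternative that tested them (circles, open where the gene was no longer called). The points nearest 0 are Slc25a10 in the authors' values (-0.18) and Ucp3 with slide as a fixed effect (0.28).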

How the data were processed

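The authors labelled quadriceps RNA with Cy3, hybridized it to Agilent mouse 4x44K V2 arrays and extracted spots with Feature Extraction 10.7.3.1, as the methods and processing notes state. In the scanner files, as deposited, each spot has an intensity from which Feature Extraction took the background and a spatial trend; arrays were not yet scaled to each other. A deposited table of log2 values for 18592 probes, quantile normalized per the methods, served as an alternative. Background subtraction widens the spread of low signals once they are put on a log2 scale.

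Here log2 of the background-subtracted intensity was quantile normalized over non-control spots, without outlier spots, and spots of a probe were averaged. A probe was well above background where at least 50% of its spots carried that flag. Of 39429 probes, 20991 were so on at least 3 arrays and were kept, and each gene took its brightest kept probe (16577 genes). Names came from RefSeq accessions of GRCm38.p6 where they matched (60 of 63 member probes) and otherwise from the files. Genotypes were compared with limma 3.58.1 (lmFit and eBayes) in R 4.3.3, with Benjamini-Hochberg adjustment over all genes; a second fit over all kept probes gave the values of second probes. The procedure was tested on simulated data. All arrays had 1 scan date. Precision is limited by the 7 arrays.

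Members, gene lists and tests were chosen with earlier results of these data known. A few measured items were left out of the text and figures. Values per array are given for the other called members and for Ucp1, Ucp2, Ucp3, Slc25a4 and Slc25a5; for Slc25a37 they were added after its values were seen. From lists, at most the 2 largest called changes in each direction are named. Promoters were printed for called members holding a searched motif. Probes were printed for a few members where 1 frame was open and the gene is known to be coding there, and not for every such probe. Alternatives covered scaling, background correction, the authors' values, filters, probe averaging, outlier spots, variance trend, array weights, slide, replicate block, the fold threshold and leaving out each array. Same-number mice were not paired.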

Additional observations from a re-analysis of the deposited data

Results flagged for a closer look

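Of 48 kept member probes, 3 had 1 WT array apart from the other WT arrays by more than Dixon's 95% limit, which chance gives in about 1 of 20 groups. On the dimmer probe of Slc25a44, WT replicate 1 read 4.90, against 3.92 to 3.94 on the other WT arrays. On the brighter probe of Slc25a26, WT replicate 4 read 10.02, against 9.64 to 9.70. On the second probe of Slc25a18, WT replicate 2 read 2.27, against 1.75 to 1.81, all of them not well above background.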

How the results depend on the processing

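None of the 13 called members changed sign in an alternative that tested it; for the 12 without overlap, leaving out arrays could not change it. The count of members called lower was 5 in the main analysis, 1 with normexp and 1 with the authors' values, and the count of all genes called was 4030, 1751 with normexp and 1365 with the authors' values; the cause was not tested. With slide as a fixed effect 0 genes, 0 higher and 0 lower members were called at 1 residual degree of freedom, while 6200 genes had an unadjusted limma p of at most 0.05. Without a fold threshold 7229 genes, 12 higher and 7 lower members passed. Leaving out each array in turn gave 3281 to 4165 genes, 5 to 9 higher members (main 8; 5 without AR113Q replicate 1) and 4 to 6 lower members. The replicate block gave 3989 genes, 7 higher and 5 lower members, and Ucp3 (adjusted p = 0.071) and Slc25a25 (log2 fold change -0.97) were no longer called; same-number mice deviated together with r of 0.04, -0.02 and 0.16 over genes, so the numbers were not taken as pairs. Slc25a4 reversed, from 0.08 to -0.51, with 75th percentile scaling. Slc25a25 lost its call under 8 of 19 alternatives, Slc25a20 and Ucp3 under 7 each. Dim probes, such as those of Slc25a10, Slc25a18 and Slc25a35, have the least certain fold sizes.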
